A study of Mus musculus with 12 samples.

Results

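The SR and hnRNP splicing factors were taken as every protein-coding mouse gene whose symbol is Srsf followed by a number or begins with Hnrnp. The rule gave 31 genes, 11 SR genes and 20 hnRNP genes, of the 56748 gene identifiers counted in every library, 21922 of which are protein-coding. A pair of processed pseudogenes with Hnrnpa1-derived symbols was left out. All 31 genes passed the filter on low counts and were tested beside 16016 genes in all, the 31 included. The study sequenced messenger RNA of natural killer (NK) cells, innate lymphocytes that kill infected and transformed cells, after sorting them from mouse lymph nodes. The 12 libraries fall into 3 groups of 4. The tumor-free group came from nodes of C57BL/6J mice without lymphoma. The lymphatic group came from nodes of mice carrying diffuse large B cell lymphoma, a fast-growing cancer of mature B cells, in a model of lymphatic dissemination, and the hematogenous group from a model of dissemination through the blood. The lymphoma line, the host strain of the tumor-bearing mice, the ages, the sort gate and any pooling of nodes or mice were not stated in the sources used here. Nothing states that libraries of a group came from separate mice, so the p-values below measure only the spread between these libraries, which may be technical.

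SR proteins carry RNA-binding domains and a tail rich in arginine and serine, bind exons and help the spliceosome recognise nearby splice sites. hnRNP proteins coat nascent transcripts and often act against SR proteins at the same exons, so the balance between the families shapes which exons a cell includes. SR activity is set by kinases of the SRPK and CLK families and by import into the nucleus, and many SR and hnRNP genes limit their own level through poison exons that send the transcript to nonsense-mediated decay. In lymphocytes these factors are known for the alternative exons of Ptprc, which encodes CD45, and of several signalling and cytokine receptor genes.

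Each library held between 6654215 and 43494812 counts assigned to genes, with 6654215 to 23674960 in the tumor-free, 17672832 to 43494812 in the lymphatic and 10087837 to 19625766 in the hematogenous group. Hematogenous replicate 1 had the lowest share of reads assigned to a gene, 55.4%, where the other 11 libraries had between 62.8% and 72.1%, and the highest share outside annotated genes, 24.6%. Lymphatic replicate 2 stood apart from the other lymphatic libraries in several hnRNP genes, so the main counts of called genes are also given without both. NK markers were present in every library, with the 12 listed markers summing to between 11532 and 13712 CPM (read counts scaled to library size) in tumor-free, 10763 and 13996 in lymphatic and 7756 and 9460 in hematogenous libraries. Markers are called at an adjusted p under 0.05, by the edgeR test used below. Of the 12 NK markers, 7 were called lower in hematogenous than tumor-free libraries, with 9 differences below 0 and 3 above. The 10 T cell markers summed to 317 to 489, 372 to 586 and 554 to 734 CPM in the same order. Of these, 4 were called higher in hematogenous than tumor-free libraries, with 9 differences above 0 and 1 below. The 12 B cell markers summed to 364 to 494, 471 to 935 and 386 to 559 CPM. Most of these sums was Ighm, with means of 318, 444 and 318 CPM. In lymphatic against tumor-free libraries 11 of the 12 differences were above 0, with a median of 1.06 on the log2 scale, and 1 was called. The 10 macrophage and monocyte markers summed to 1139.8 to 1206, 1410.4 to 1716 and 938 to 1314 CPM, with Cd14 at 0 in the tumor-free group. Of the 9 tested, 4 were called higher and 0 lower in hematogenous than tumor-free libraries, with 5 differences above 0 and 4 below. Itgax, with means of 872 CPM in tumor-free and 700 CPM in hematogenous libraries, made up most of these sums. The 6 neutrophil markers summed to 0 to 2.09, 1.25 to 3.20 and 3.02 to 46.1 CPM, with Ly6g and Retnlg at 0 throughout the tumor-free and lymphatic groups. Plasma cell, dendritic cell, erythroid and platelet, and stromal markers summed to at most 194, 51.9, 54.4 and 174 CPM in any library. These markers moved with the groups, and their part in the results below was not tested.

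Promoter sequences were read from RefSeq (GRCm38.p6) for the 29 of 31 genes with an entry, and 23 of these had a single annotated start. To show what stands upstream of genes that moved in opposite directions, the 250 bases before the start are printed for Srsf5 (chr12:80945249-80945498, plus strand) and Hnrnph3 (chr10:63023850-63024099, minus strand), which were higher in hematogenous than tumor-free libraries, and for Hnrnpa0 (chr13:58128557-58128806, minus strand) and Hnrnpc (chr14:52104022-52104271, minus strand), which were lower. They are the genes with a single start and the smallest adjusted p in each direction. Capitals mark matches on either strand to CCAAT (the CCAAT box), GGGCGG (the GC box) or CCGGAA (the core bound by ETS factors), and neighbouring matches can overlap.
Srsf5: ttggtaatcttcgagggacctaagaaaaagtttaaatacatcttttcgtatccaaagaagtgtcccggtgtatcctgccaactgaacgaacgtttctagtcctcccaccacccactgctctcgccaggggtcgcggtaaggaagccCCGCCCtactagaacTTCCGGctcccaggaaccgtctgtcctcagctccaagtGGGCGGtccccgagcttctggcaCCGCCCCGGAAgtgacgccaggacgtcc
Hnrnph3: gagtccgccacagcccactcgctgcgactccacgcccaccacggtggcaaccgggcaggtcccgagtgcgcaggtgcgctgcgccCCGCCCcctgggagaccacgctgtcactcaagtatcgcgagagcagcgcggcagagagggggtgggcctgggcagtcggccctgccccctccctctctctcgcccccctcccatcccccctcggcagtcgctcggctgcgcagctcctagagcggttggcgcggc
Hnrnpa0: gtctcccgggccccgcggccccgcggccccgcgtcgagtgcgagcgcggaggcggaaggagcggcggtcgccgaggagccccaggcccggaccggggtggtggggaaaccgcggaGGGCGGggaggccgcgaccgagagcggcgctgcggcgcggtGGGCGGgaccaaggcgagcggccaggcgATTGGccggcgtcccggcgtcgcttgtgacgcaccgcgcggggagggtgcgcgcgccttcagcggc
Hnrnpc: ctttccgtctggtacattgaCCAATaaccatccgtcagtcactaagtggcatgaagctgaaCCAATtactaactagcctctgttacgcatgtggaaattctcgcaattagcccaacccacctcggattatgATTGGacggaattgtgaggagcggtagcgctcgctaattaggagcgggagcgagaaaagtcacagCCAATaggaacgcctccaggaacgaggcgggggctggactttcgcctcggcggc
The Srsf5 window held 3 GC boxes and 2 ETS cores and the Hnrnph3 window 1 GC box, and neither held CCAAT. The Hnrnpa0 window held 1 CCAAT box and 2 GC boxes, and the Hnrnpc window 4 CCAAT boxes and neither of the other motifs. Of the 3 single-start genes called lower in hematogenous than tumor-free libraries, 2 held CCAAT and Srsf9 did not. Of the 3 called higher there, 0 held it, while Hnrnpa1, called higher in lymphatic libraries, held 4. GC content was 56.8% for Srsf5, 73.6% for Hnrnph3, 81.2% for Hnrnpa0 and 52.8% for Hnrnpc, against a median of 52% over the 22862 single-start promoters of the table.

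Over the 23 single-start genes, the GC box was found in 19 (82.6%) against 32.4% of all 22862 promoters, CCAAT in 12 (52.2%) against 34.7% and CCGGAA in 7 (30.4%) against 12.2%. TATAAA was found in 3, those of Srsf2, Srsf3 and Hnrnpm, which is 13.0% against 13.6%. The cyclic AMP element core TGACGT was found in 4 (17.4% against 6.51%) and the E-box CACGTG in 2 (8.70% against 5.92%). TGANTCA, the AP-1 element, was found in 1, that of Hnrnpa1 (4.35% against 6.96%). These are matches of letters in a window whose base composition differs between genes, and not measured binding.

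Annotated gene models were read as well. In the GENCODE M21 annotation, 9 of the 11 SR genes (81.8%) and 10 of the 20 hnRNP genes (50%) had at least 1 transcript classed as a target of nonsense-mediated decay, against 29.4% of 11983 tested protein-coding genes. A transcript with a retained intron was annotated for 8 SR genes (72.7%) and 14 hnRNP genes (70%), against 59.8%. The median number of annotated transcripts was 7 for SR genes, 8 for hnRNP genes and 5 for tested protein-coding genes. The shares were not adjusted for it. Srsf10 and Srsf12 were the SR genes without an annotated decay transcript. The files count reads per gene, so productive and unproductive transcripts of a gene enter the same count.

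Levels were compared between genes per kilobase of annotated exon. Srsf5, a shuttling SR protein, had the highest mean of the SR genes at 222 ± 48.2 CPM per kb (SD, n = 12 libraries). Srsf6 at 77.5 ± 11.6, Srsf7 at 77.2 ± 13.2, Srsf2 at 73.0 ± 8.38 and Srsf1 at 70.9 ± 7.60 CPM per kb followed, and these 4 did not differ from each other beyond their spread. Srsf3 at 40.3 ± 8.25, below Srsf1 by more than their summed spread, Srsf11 at 35.8 ± 7.79, Srsf9 at 24.6 ± 6.11, Srsf10 at 18.7 ± 2.85 and Srsf4 at 12.0 ± 2.04 CPM per kb came next. Of these, Srsf11, Srsf9 and Srsf10 lay within the summed spread of the gene above, and Srsf4 lay below Srsf10 by more than that. Srsf12, a small SR-related repressor, was lowest at 2.07 ± 1.71 CPM per kb, resting on 9 to 355 counts a library.

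Among hnRNP genes, Hnrnpa2b1 (175 ± 26.5 CPM per kb), Hnrnpa1 (170.3 ± 31.6) and Hnrnph1 (132 ± 24.6) had the highest levels per length. Hnrnpa2b1 and Hnrnpa1, the core proteins of hnRNP particles, did not differ beyond their spread, and Hnrnph1, which binds runs of G, lay within the summed spread of both. Then came Hnrnpk (84.0 ± 11.4), a binder of C-rich RNA, and Hnrnpab (78.2 ± 25.6), and below them the order ran without a gap larger than the neighbours' spread from Hnrnpl (71.7 ± 4.11) through Hnrnpu (68.0 ± 6.28), Hnrnpul2 (59.7 ± 4.66), Hnrnpdl (59.5 ± 8.11), Hnrnpc (59.2 ± 13.5), Hnrnpf (54.6 ± 12.9), Hnrnpm (45.7 ± 6.10), Hnrnpa0 (38.0 ± 7.79), Hnrnpd (35.5 ± 4.97), Hnrnpul1 (34.5 ± 3.51), Hnrnpa3 (33.3 ± 6.51) and Hnrnph2 (29.6 ± 4.04) to Hnrnph3 (29.5 ± 6.66). Hnrnpr (8.25 ± 1.14) and Hnrnpll (2.67 ± 0.385), the regulator of CD45 exons in activated T cells, were lowest. With the length of the longest coding transcript in place of all annotated exons, an alternative chosen after seeing the data, Srsf5 and Hnrnpa2b1 stayed first in their families, Srsf3 moved from rank 6 to rank 2 of the SR genes, and Hnrnpa1 and Hnrnph1 changed places. Of all 31 genes, Srsf5 was first on annotated exon length, and Hnrnpa2b1 (666 CPM per kb) was above Srsf5 (564) on the longest coding transcript. In the tumor-free group the levels of Srsf5 (164 ± 6.93) and Hnrnpa2b1 (160.3 ± 13.6 CPM per annotated kb) did not differ beyond their spread. These orders pool the 3 groups. Hnrnpab was at 98.2 ± 34.8 CPM per annotated kb in lymphatic and 57.9 ± 9.74 in hematogenous libraries. Its hematogenous mean was below those of Hnrnpl (70.0 ± 4.55), Hnrnpu (68.4 ± 2.04), Hnrnpdl and Hnrnpul2, each time within the summed spread. In the lymphatic group Hnrnpa1 (204.6 ± 30.1) and Hnrnpa2b1 (199.9 ± 31.8) did not differ beyond their spread, and Hnrnph1 (139 ± 6.18) lay below both by more than the summed spread. In the tumor-free group Hnrnph1 (103 ± 4.92) likewise lay below Hnrnpa2b1 and Hnrnpa1 (147 ± 14.0). In the hematogenous group Hnrnph1 (153 ± 19.0) lay within the summed spread of Hnrnpa2b1 (163.9 ± 10.1) and Hnrnpa1 (159.3 ± 10.7).

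**Figure D1:**
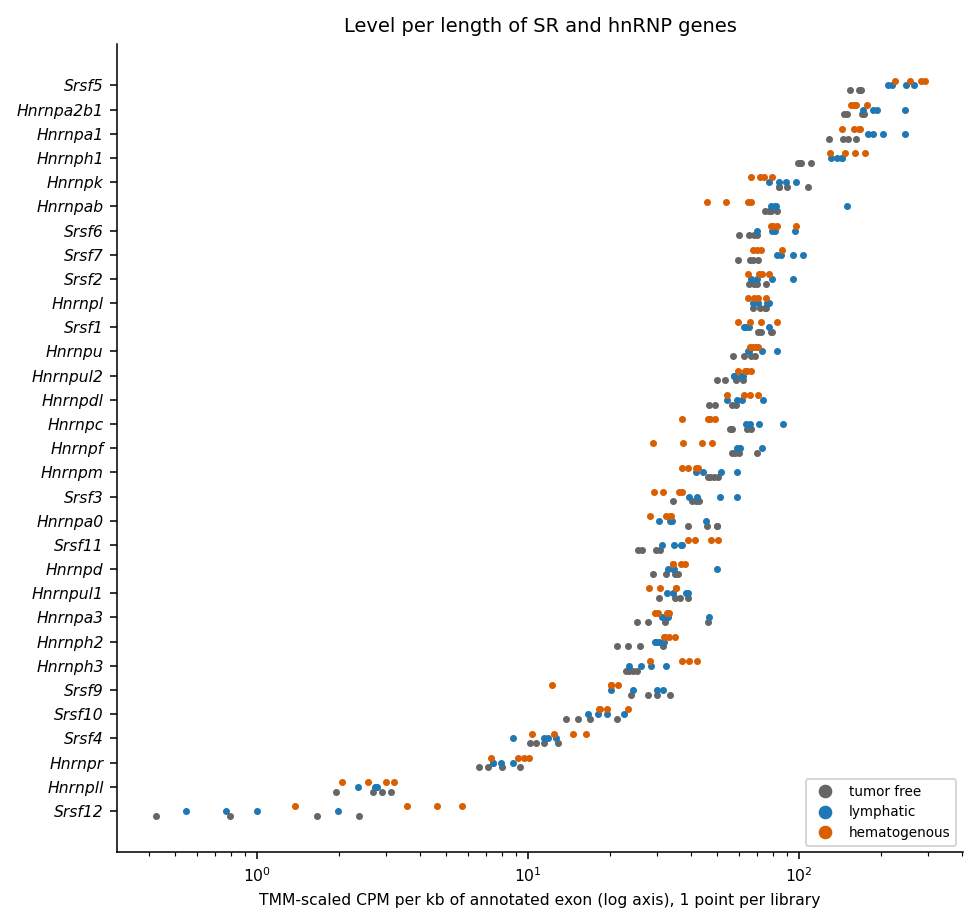
Level per length of the 31 genes, 1 point per library on a log axis of TMM-scaled CPM per kilobase of annotated exon, coloured by group and ordered by the mean over 12 libraries. On this length Srsf5 lies highest at a mean of 222 CPM per kb and Srsf12 lowest at 2.07, and on the longest coding transcript Hnrnpa2b1 (666) lies above Srsf5 (564).

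Summed over the family, SR genes took 0.264% ± 0.0123 of gene counts in tumor-free, 0.303% ± 0.0281 in lymphatic and 0.330% ± 0.0317 in hematogenous libraries (SD, n = 4 each). The lowest hematogenous share, 0.287%, exceeded the highest tumor-free share, 0.279%, while the lowest lymphatic share, 0.276%, did not. The hnRNP genes together took 0.691% ± 0.0302, 0.745% ± 0.0709 and 0.719% ± 0.0350, and the 3 groups overlapped. These sums weight each gene by its abundance and are given without a test.

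The comparison of lymphatic with tumor-free libraries asks how NK cells of nodes in the lymphatic dissemination model differ from those of a tumor-free node. With edgeR's quasi-likelihood test across all genes and Benjamini-Hochberg adjusted p under 0.05, 4 of the 31 genes were called higher and 0 lower (12.9%), where 2.74% of all tested genes were called, 2.32% higher and 0.418% lower. Among tested genes with a mean of at least 20 CPM, as all of the 31 but Srsf12 have, 4.29% were called. At an unadjusted p under 0.05, 7 of the 31 genes were higher and 1 was lower. The share of all genes at an unadjusted p was not counted, here or below. DESeq2 and voom each also called 4 higher and 0 lower, beside 4.55% and 2.80% of all tested genes. In bulk libraries a gene's lower value can mean fewer cells of a type or less RNA per cell, and these cannot be told apart here.

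Srsf5 levels were 676, 615, 664 and 668 CPM in the tumor-free libraries and 987, 1056, 852 and 881 CPM in the lymphatic ones. Every lymphatic library lay above every tumor-free one. The fitted log2 difference was 0.53 ± 0.11 (SE), a 1.44-fold higher level with an adjusted p of 0.0137.

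Srsf7, an SR protein that shuttles to the cytoplasm and aids mRNA export, measured 251, 240.1, 211 and 233 CPM in tumor-free and 294, 366, 337 and 304 CPM in lymphatic libraries. The groups did not overlap, and the log2 difference was 0.48 ± 0.12 with an adjusted p of 0.0309. In hematogenous libraries the level was 307, 241, 256 and 248 CPM, overlapping the tumor-free range, and the log2 difference of 0.17 from tumor-free libraries was not called (adjusted p = 0.363).

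Hnrnpa1, a repressor of exon inclusion, measured 513, 407, 477 and 457 CPM in tumor-free and 645, 779, 567 and 590.3 CPM in lymphatic libraries. The groups again did not overlap, with a log2 difference of 0.48 ± 0.12 and an adjusted p of 0.0367. Hnrnpa1 has processed copies elsewhere in the genome, and reads that aligned to several places were kept out of the gene counts, so its absolute level is uncertain.

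Hnrnph1 measured 596, 588, 644 and 580.3 CPM in tumor-free and 841, 844, 804 and 767 CPM in lymphatic libraries. All 4 lymphatic libraries were higher than all 4 tumor-free ones, and the log2 difference was 0.43 ± 0.11 with an adjusted p of 0.0378.

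Srsf6 (log2 difference 0.32) and Srsf11 (0.32) also did not overlap between the groups, yet were not called, with adjusted p of 0.204 and 0.189. The largest negative difference was that of Hnrnpa0, -0.37 ± 0.14 (adjusted p = 0.211). Over the family, 7 of 11 SR differences and 17 of 20 hnRNP differences were above 0, with medians of 0.19 and 0.15 on the log2 scale beside 0.08 over all 16016 genes. Without lymphatic replicate 2 these medians were 0.07 and 0.02 beside 0.03, so the hnRNP median then lay below that of all genes, as it did with voom (0.08 beside 0.14).

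These calls depend on single libraries. Leaving out any 1 library other than tumor-free replicate 3 or hematogenous replicate 1 brought the count to between 0 and 2. Without tumor-free replicate 2 or tumor-free replicate 4 none of the 31 genes was called by edgeR, and without lymphatic replicate 2 the 1 call was Hnrnpa0, lower. Srsf5 kept its call in 21 of 25 alternative analyses, losing it without tumor-free replicate 2, tumor-free replicate 4 or lymphatic replicate 2 and at equal depth, and Srsf7, Hnrnpa1 and Hnrnph1 in 9 of 25 each. Without both hematogenous replicate 1 and lymphatic replicate 2, Srsf5 was called higher (adjusted p = 0.0359) and Hnrnpa0 lower (adjusted p = 0.0371).

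In hematogenous against tumor-free libraries, 5 of the 31 genes were called higher and 4 lower (29.0%), where 16.4% of all tested genes were called, 9.52% higher and 6.87% lower. Among tested genes of at least 20 CPM the share was 26.8%, close to that of the 31. This set has a floor on abundance and was not matched to the levels of the 31. The comparison uses the same 4 tumor-free libraries as the preceding one. Hematogenous libraries also had fewer reads assigned to genes, 55.4% to 65.5% against 65.7% to 70.7% in tumor-free libraries, and the part of this in the differences was not tested.

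The genes called higher were Srsf5, Srsf11, Srsf6, Hnrnph1 and Hnrnph3. Srsf5 measured 1160.3, 898, 1027 and 1126 CPM in the hematogenous libraries, all above the tumor-free maximum of 676 CPM, with a log2 difference of 0.68 ± 0.12 and an adjusted p of 6.70e-04. Srsf11, an SR-related protein that can act against other SR proteins, measured 222, 215, 258 and 251 CPM in tumor-free and 398, 329, 425 and 349.6 CPM in hematogenous libraries. Those groups did not overlap, the log2 difference was 0.67 ± 0.12 and the adjusted p was 9.02e-04. Lymphatic libraries lay between them at 293, 310.0, 313 and 264 CPM.

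Srsf6, which promotes inclusion of exons with weak splice sites, measured 336, 289, 327 and 315 CPM in tumor-free and 469, 384, 378 and 399 CPM in hematogenous libraries. The groups did not overlap, and the log2 difference of 0.36 ± 0.12 passed with an adjusted p of 0.0430, a call kept in 12 of 25 alternative analyses. Leaving out any of 8 single libraries ended it (tumor-free 2, 3 and 4, lymphatic 1 and 4, hematogenous 1, 3 and 4). Srsf12 was higher in 3 of 4 hematogenous libraries than in any tumor-free one, with a log2 difference of 1.55 ± 0.57, and was not called (adjusted p = 0.0688).

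Hnrnph1 reached 1022, 762, 939 and 862 CPM in hematogenous libraries, all above the tumor-free maximum of 644 CPM, with a log2 difference of 0.57 ± 0.11 and an adjusted p of 0.00194. Hnrnph3, a smaller relative of Hnrnph1 whose exons overlap those of Rufy2 on the opposite strand, measured 74.6, 72.2, 77.2 and 79.9 CPM in tumor-free and 124, 88.6, 133 and 116 CPM in hematogenous libraries. It did not overlap between the groups either, with a log2 difference of 0.60 ± 0.14 and an adjusted p of 0.00691. Hnrnph2, the X-linked copy of Hnrnph1, had a log2 difference of 0.36 ± 0.12 and missed the threshold (adjusted p = 0.0528).

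The genes called lower were Hnrnpf, Hnrnpa0, Hnrnpc and Srsf9. Hnrnpf encodes a close relative of the Hnrnph1 protein and binds the same G runs. It measured 173, 212, 184 and 177 CPM in tumor-free and 88.3, 133, 114 and 146 CPM in hematogenous libraries, and 184, 223, 179.6 and 185 CPM in lymphatic ones. Hematogenous libraries lay below all others, with a log2 difference from tumor-free of -0.63 ± 0.14 and an adjusted p of 0.00537. The ratio of Hnrnph1 to Hnrnpf counts within a library, chosen after the values were seen and given without a test, was 2.77 to 3.51 in tumor-free, 3.78 to 4.58 in lymphatic and 5.71 to 11.6 in hematogenous libraries, the highest being hematogenous replicate 1. Genes on the opposite strand overlap annotated exons of Hnrnpf, and whether counting used strand is not given in the sources used here.

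Hnrnpa0, which binds AU-rich elements in cytokine mRNAs, measured 134, 134, 123 and 104 CPM in tumor-free and 89.7, 75.4, 90.6 and 86.8 CPM in hematogenous libraries. The groups did not overlap, with a log2 difference of -0.53 ± 0.14 and an adjusted p of 0.0144. Hnrnpc, which binds U tracts and keeps cryptic exons out, measured 288, 245, 241 and 277 CPM in tumor-free and 159, 211, 202 and 199.9 CPM in hematogenous libraries. Its log2 difference was -0.44 ± 0.13 with an adjusted p of 0.0220, and the call was lost without tumor-free replicate 1, tumor-free replicate 4 or hematogenous replicate 1.

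Srsf9, an SR protein with a short tail, measured 49.5, 39.5, 45.8 and 55.3 CPM in tumor-free and 33.6, 33.4, 20.3 and 35.7 CPM in hematogenous libraries. The groups did not overlap, with a log2 difference of -0.63 ± 0.20 and an adjusted p of 0.0372. The call was lost without hematogenous replicate 3, the lowest library, or tumor-free replicate 1, 3 or 4, with voom, with only the compared groups, at equal depth and with the length trend removed, and kept in 17 of 25 alternative analyses. By contrast, the calls of Srsf5, Srsf11, Hnrnph1, Hnrnph3, Hnrnpf and Hnrnpa0 were kept in 25 of 25, each library left out in turn included, with adjusted p of at most 0.0457. Without both hematogenous replicate 1 and lymphatic replicate 2, 5 genes were called higher and 5 lower, where 12.8% of all tested genes were called, 1267 higher and 846 lower.

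Family medians differed in this comparison. SR genes had a median log2 difference of 0.24, with 8 of 11 above 0, and hnRNP genes one of 0.03, with 11 of 20 above 0, beside 0.08 over all genes. The hnRNP median was below 0 with voom (-0.01), with libraries thinned to equal depth (-0.03) and after removal of the trend with gene length (-0.17), while the SR median stayed above 0 in these 3 analyses, at 0.22, 0.15 and 0.20. The hnRNP median was also below 0 without tumor-free replicate 4 (-0.005), lymphatic replicate 2 (-0.01), lymphatic replicate 4 (-0.03), hematogenous replicate 1 (-0.02), or hematogenous replicate 1 and lymphatic replicate 2 together (-0.02). In the other direction, it rose to 0.12 without tumor-free replicate 1, above the 0.10 of all genes. Without hematogenous replicate 2 it was 0.09.

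**Figure D2:**
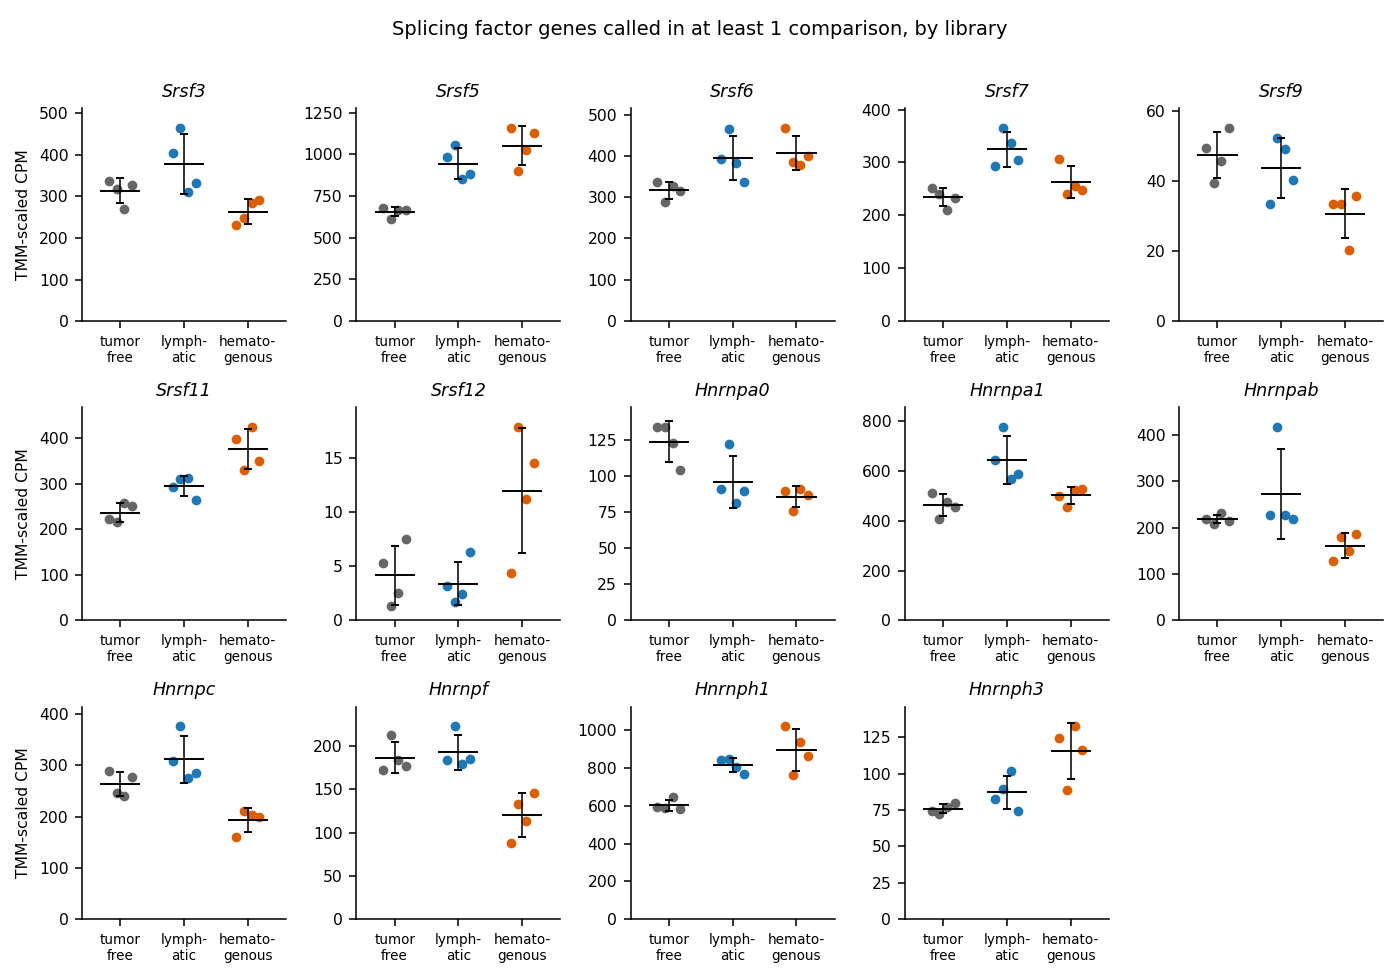
TMM-scaled CPM in each of the 12 libraries for the 14 genes called in at least 1 comparison, with 1 point per library, a horizontal line at the group mean and bars of 1 SD (n = 4), on axes that start at 0. Srsf5, Srsf11 and Hnrnph1 are higher in both lymphoma groups than in tumor-free libraries without overlap, and Hnrnpf is lower in hematogenous libraries, at 88.3 to 146 CPM, than in all others.

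The contrast of hematogenous with lymphatic libraries tests the difference between the 2 lymphoma groups directly. Here 1 gene was called higher and 4 lower (16.1%), where 8.85% of all tested genes were called, 2.93% higher and 5.92% lower, and 16.8% of tested genes of at least 20 CPM. The share of the 31 was close to that of the genes of at least 20 CPM, which were not matched to the levels of the 31. The single higher call was an SR gene, and 3 of the 4 lower ones were hnRNP genes. With upper quartile scaling or library size alone the 31 genes had 3 called higher and 3 lower, beside 8.11% and 8.33% of all tested genes. No hnRNP gene was called higher by edgeR with TMM scaling, with 1 at an unadjusted p under 0.05. DESeq2, voom and edgeR with each of 3 other scalings or with the length trend removed called 1.

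Hnrnpc measured 308, 376, 276 and 285 CPM in lymphatic libraries against the 159 to 211 CPM of hematogenous ones. The groups did not overlap, the log2 difference was -0.69 ± 0.13 (hematogenous minus lymphatic) and the adjusted p was 0.00273, a call kept in 25 of 25 alternative analyses. Hnrnpf, with the values given above, had a log2 difference of -0.68 ± 0.14 and an adjusted p of 0.00597, and its call was lost only when hematogenous replicate 1 and lymphatic replicate 2 were both left out (adjusted p = 0.0765).

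Hnrnpab, which shuttles and binds both coding and noncoding RNA, measured 228, 418, 227 and 219.5 CPM in lymphatic and 128, 181, 150.0 and 185 CPM in hematogenous libraries, beside 219.8, 209, 231 and 215 CPM in tumor-free ones. The groups did not overlap, but lymphatic replicate 2 stood far above the rest. The log2 difference was -0.76 ± 0.18 with an adjusted p of 0.0109, and the call was lost without hematogenous replicate 1 or hematogenous replicate 3, while without hematogenous replicate 1 and lymphatic replicate 2 together it was -0.35 with an adjusted p of 0.127. Exons of Phykpl overlap those of Hnrnpab on the opposite strand.

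Srsf3, the smallest SR protein and an adaptor for mRNA export, measured 405, 466, 310.0 and 331 CPM in lymphatic and 231, 248, 285 and 291 CPM in hematogenous libraries. Every hematogenous library was below every lymphatic one, and the log2 difference of -0.52 ± 0.13 was called with an adjusted p of 0.0202. Tumor-free libraries at 338, 318, 271 and 328 CPM overlapped both groups. The call was kept in 17 of 25 alternative analyses and lost with upper quartile scaling, with library size alone and without lymphatic replicate 1 or 2 or hematogenous replicate 1, 2 or 3, and without lymphatic replicate 2 and hematogenous replicate 1 together the log2 difference was -0.31 with an adjusted p of 0.305.

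Srsf12 was the gene called higher, at 4.35, 17.9, 11.2 and 14.5 CPM in hematogenous against 3.14, 1.72, 2.42 and 6.28 CPM in lymphatic libraries. The groups overlapped, because hematogenous replicate 1 lay inside the lymphatic range. The log2 difference was 1.83 ± 0.56 with an adjusted p of 0.0473, and leaving out tumor-free replicate 3, lymphatic replicate 1, 2 or 3, or hematogenous replicate 2, 3 or 4 ended the call.

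Srsf5 and Hnrnph1, each called higher in both lymphoma groups, did not pass the test here. Their log2 differences were 0.16 (95% interval -0.08 to 0.40) and 0.14 (-0.09 to 0.37). Hnrnpa1, called in the lymphatic but not in the hematogenous group, had a log2 difference of -0.36 (adjusted p = 0.0691), and Srsf7 one of -0.31 (adjusted p = 0.116), so neither was shown to differ between the lymphoma groups. Hnrnpa0 and Srsf6 likewise had differences of -0.16 (adjusted p = 0.576) and 0.05 (adjusted p = 0.884), and Srsf9 one of -0.51 (adjusted p = 0.124). Srsf11 had a log2 difference of 0.35 (adjusted p = 0.0689), with every hematogenous library above every lymphatic one. It was called higher in 12 of 25 alternative analyses. Hnrnph3 overlapped between the groups, with a difference of 0.41 (adjusted p = 0.0786), and was called higher in 8 of 25. Without hematogenous replicate 1 and lymphatic replicate 2, Hnrnpc alone of the 31 genes was called in this contrast, beside 2.43% of all tested genes. Of the 31 genes, 3 were called without lymphatic replicate 1, lymphatic replicate 2 or hematogenous replicate 1 left out singly, and 2 without hematogenous replicate 3.

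The SR median in this contrast was 0.05, with 7 of 11 above 0, and turned to -0.02 with the gene-length trend removed and to -4.3e-04 without lymphatic replicate 4. The hnRNP median was -0.12, with 13 of 20 below 0, and was 0.002 without hematogenous replicate 1 and lymphatic replicate 2. Scaling by library size alone moved the median of all genes from -0.01 to 0.10. Relative to the median of all genes, the SR median was 0.05 under the main scaling and 0.06 with library size alone, and the hnRNP median was -0.12 and -0.11.

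**Figure D3:**
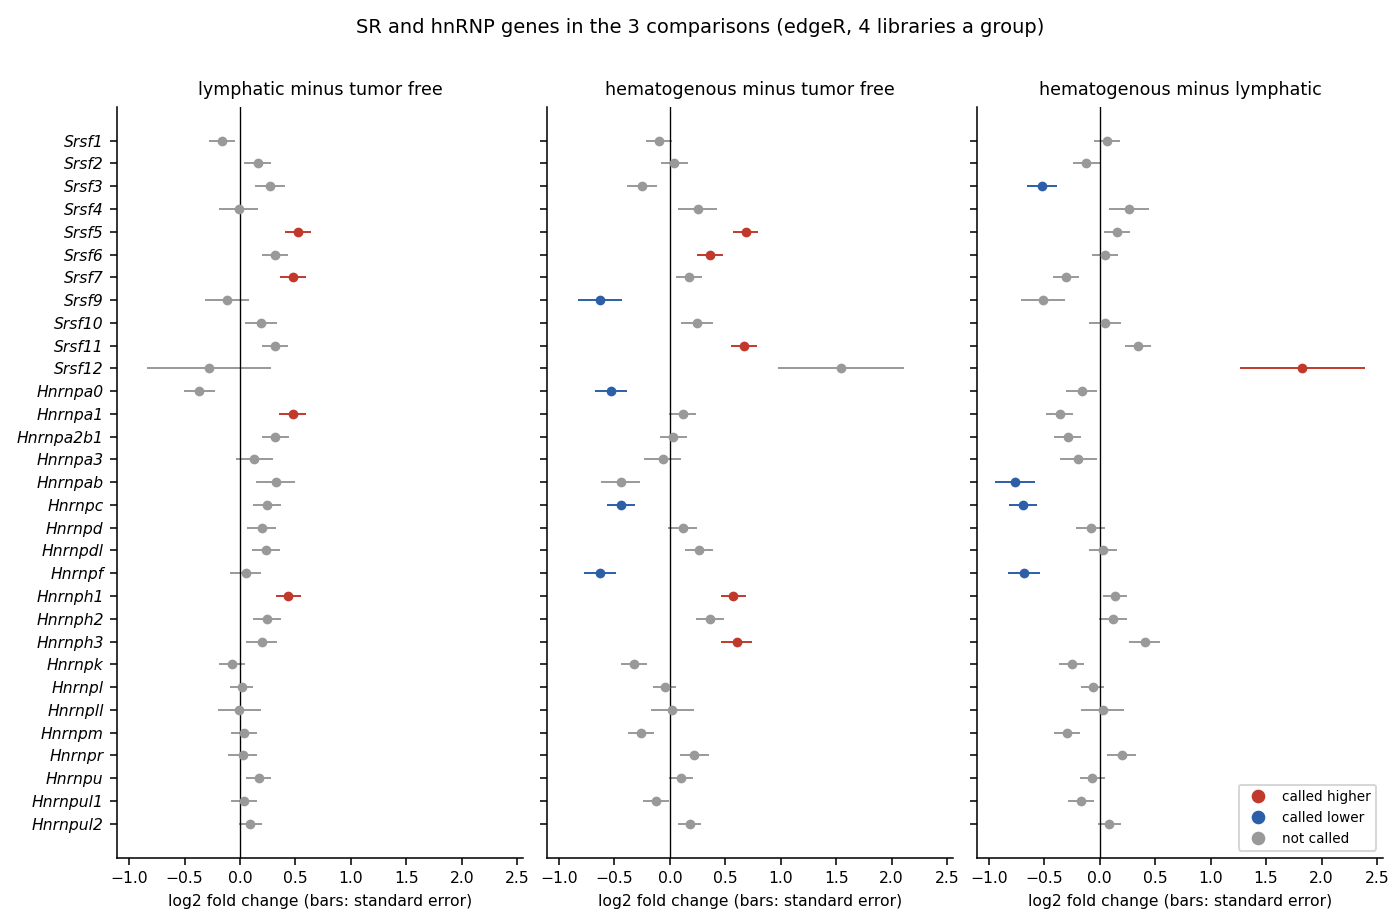
Fitted log2 differences of the 31 genes in the 3 comparisons, with bars of 1 standard error, red for genes called higher, blue for genes called lower and grey for the rest. All 4 calls of the lymphatic comparison are higher, the hematogenous comparison has 5 higher and 4 lower, and the direct contrast has 1 higher and 4 lower.

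The remaining genes, 17 of the 31, were called in none of the comparisons. Srsf1, the founding member of the family, had log2 differences of -0.16, -0.10 and 0.06 in the order lymphatic against tumor-free, hematogenous against tumor-free and hematogenous against lymphatic. Srsf2, which stays in the nucleus, had 0.16, 0.04 and -0.12. Hnrnpl, which binds CA repeats and regulates CD45 exons, had 0.02, -0.05 and -0.06, and its levels in all 12 libraries lay between 387 and 461 CPM. Hnrnpll differed by -0.005, 0.02 and 0.03.

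Hnrnpa2b1, the most abundant hnRNP gene per length, measured 1124, 967, 1141 and 989.6 CPM in tumor-free, 1278, 1617, 1238 and 1132 CPM in lymphatic and 1174, 1046, 1072 and 1024 CPM in hematogenous libraries. The groups overlapped throughout, and its log2 differences of 0.32, 0.03 and -0.29 had adjusted p of 0.212, 0.898 and 0.167. Hnrnpk and Hnrnpm were below all tumor-free libraries in every hematogenous one without passing the test, with log2 differences of -0.33 (adjusted p = 0.0618) and -0.26 (adjusted p = 0.146). The other 10 uncalled genes were Srsf4, Srsf10, Hnrnpa3, Hnrnpd, Hnrnpdl, Hnrnph2, Hnrnpr, Hnrnpu, Hnrnpul1 and Hnrnpul2. Their log2 differences lay between -0.19 and 0.36 in all 3 comparisons.

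The enzymes that act on SR proteins were read from a list of 25 kinases, phosphatases, importers and an exporter. In lymphatic against tumor-free libraries 1 was called higher and 0 lower (4.00%, beside 2.74% of all tested genes and 4.29% of those of at least 20 CPM). It was Pim1, a cytokine-induced kinase, higher by 0.76 ± 0.15 on the log2 scale (adjusted p = 0.00512). In hematogenous against tumor-free libraries 9 were higher and 3 lower (48.0% called, beside 16.4% of all tested genes and 26.8% of those of at least 20 CPM), led by Akt1 (-0.65 ± 0.12), the phosphatase subunit Ppp1ca (-0.64 ± 0.13) and the splicing kinase Cdk11b (0.64 ± 0.13). Clk1 and Srpk1, kinases that phosphorylate the SR tail, were higher by 0.41 ± 0.12 (adjusted p = 0.0189) and 0.37 ± 0.11 (adjusted p = 0.0252). Tnpo3, which imports phosphorylated SR proteins, differed by -0.004 on the log2 scale and was not called. The Clk1 call was lost without lymphatic replicate 4 or hematogenous replicate 1 or 3, and the Srpk1 call without tumor-free replicate 2 or 4, lymphatic replicate 4 or hematogenous replicate 2 or 3. With the gene-length trend removed the Clk1 difference was 0.22 (adjusted p = 0.185) and the Srpk1 difference 0.07 (adjusted p = 0.741), and Srpk1 was also not called at equal depth or with no filter on low counts. In the direct contrast 2 were higher and 4 lower (24.0%, beside 8.85% and 16.8%), among them Cdk11b (0.57 ± 0.13), Ppp1ca (-0.54 ± 0.13) and Pim1 (-0.53 ± 0.15). The last 2 calls were lost without lymphatic replicate 2 or hematogenous replicate 1 or 3 and, for Pim1, hematogenous replicate 2. Pim1 was also not called there with 3 other scalings or at equal depth. Without hematogenous replicate 1 and lymphatic replicate 2 together that contrast had 1 higher and 0 lower in this list (beside 2.43% of all tested genes). The hematogenous against tumor-free comparison then had 5 higher and 3 lower (beside 12.8%).

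Of 50 tested SR-related and other splicing regulators, 3 were called higher and 1 lower in lymphatic libraries (8.00%, beside 2.74% and 4.29%). Among the higher were the helicase Ddx5 (0.62 ± 0.11), Sfpq (0.80 ± 0.14) and the exon activator Tra2b (0.58 ± 0.13). In hematogenous libraries 20 were higher and 5 lower than in tumor-free ones (50.0%, beside 16.4% and 26.8%). They were led by the speckle scaffold Srrm2 (0.83 ± 0.16), Tia1 (0.81 ± 0.16) and Ddx5 (0.49 ± 0.11). Tra2b, whose lymphatic call was lost without tumor-free replicate 1 or 4 or lymphatic replicate 2 and with the length trend removed, differed by 0.22 on the log2 scale (adjusted p = 0.284) and was not called. Ptbp1, the polypyrimidine tract repressor, differed by -0.47 ± 0.13 (adjusted p = 0.0171), and in the direct contrast by -0.56 ± 0.13 (adjusted p = 0.0109). Its first call was lost without hematogenous replicate 3 and its second without hematogenous replicate 1 or 3. The Tia1 call was lost with the length trend removed (adjusted p = 0.0525). The direct contrast had 4 higher and 4 lower (16.0%, beside 8.85% and 16.8%), led by the cold-inducible Cirbp (1.12 ± 0.14), Pcbp1 (-0.78 ± 0.16) and Raly (-0.58 ± 0.12). Without hematogenous replicate 1 and lymphatic replicate 2 together it had 1 higher and 0 lower, and Pcbp1 (adjusted p = 0.0753), Raly (adjusted p = 0.0848) and Ptbp1 were not called. The hematogenous against tumor-free count was then 14 higher and 2 lower. Of all tested genes, 2.43% were called in the direct contrast and 12.8% in that comparison.

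None of 56 spliceosome core genes was called in lymphatic libraries by edgeR, DESeq2 or voom, with 5 higher and 1 lower at an unadjusted p under 0.05 in edgeR. In hematogenous libraries 3 were higher and 8 lower than in tumor-free ones (19.6% called, a share between the 16.4% of all tested genes and the 26.8% of those of at least 20 CPM), led by Snrpb (-1.05 ± 0.18) and Snrpd2 (-1.18 ± 0.23), which form the ring around spliceosomal RNAs, and Sf3b5 (-1.47 ± 0.29). The direct contrast had 1 higher and 8 lower (16.1%, beside 8.85% and 16.8%), led by Snrpd2 (-0.99 ± 0.23), Cdc5l (-0.55 ± 0.13) and Snrpd1 (-0.94 ± 0.25). The Cdc5l call was lost without lymphatic replicate 2 or hematogenous replicate 1, 3 or 4, and the Snrpd1 call without lymphatic replicate 2 or hematogenous replicate 2 or 3.

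Nonsense-mediated decay and exon junction genes, which bear on the poison-exon transcripts of the SR genes, numbered 19. In hematogenous against tumor-free libraries 5 were higher and 3 lower (42.1%, beside 16.4% of all tested genes and 26.8% of those of at least 20 CPM). They were led by Smg1 (0.86 ± 0.16), Sap18 (-0.87 ± 0.17) and Upf3b (0.80 ± 0.16). Upf1, the central helicase of the pathway, differed by -0.47 ± 0.15 between hematogenous and tumor-free libraries (adjusted p = 0.0397), a call kept in 16 of 25 alternatives and lost with voom and without tumor-free replicate 1, 2 or 3 or hematogenous replicate 1, 2 or 3. The direct contrast (21.1% called, beside 8.85% and 16.8%) had 1 higher, Upf3b (0.62 ± 0.16), and 3 lower. Among the lower were Magohb (-1.03 ± 0.30) and Magoh (-0.82 ± 0.24), whose calls were kept in 11 and 10 of 25 alternatives. The Upf3b call was lost without lymphatic replicate 1 or 2 or hematogenous replicate 1, and those of both Magoh genes without any of lymphatic 1, lymphatic 2, tumor-free 4, hematogenous 1 or hematogenous 4, among others.

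These counts moved with the treatment of gene length. The count over all tested genes in hematogenous against tumor-free libraries became 1032 higher and 1108 lower (13.4%) with that trend removed. With the trend against gene length removed, the hematogenous against tumor-free counts became 5 higher and 6 lower for the splicing regulators, 3 higher and 3 lower for the SR kinases, phosphatases and importers, 1 higher and 7 lower for the spliceosome core and 4 higher and 4 lower for the decay genes, while the 31 SR and hnRNP genes went from 5 higher and 4 lower to 4 higher and 5 lower. In the direct contrast, without hematogenous replicate 1 and lymphatic replicate 2, neither the spliceosome core nor the decay genes had a call left. Of all tested genes 2.43% were then called. In edgeR at an unadjusted p under 0.05 the core then had 3 higher and 8 lower, and the decay genes 1 higher and 0 lower. The hematogenous against tumor-free counts without those libraries were 3 higher and 6 lower for the core and 4 higher and 2 lower for the decay genes. Beside them 12.8% of all tested genes were called, 1267 higher and 846 lower. In the lymphatic comparison the list counts were 1 higher and 0 lower for the kinases, phosphatases and importers and 2 higher and 1 lower for the regulators. The share of all tested genes called there was 2.34%.

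**Figure D4:**
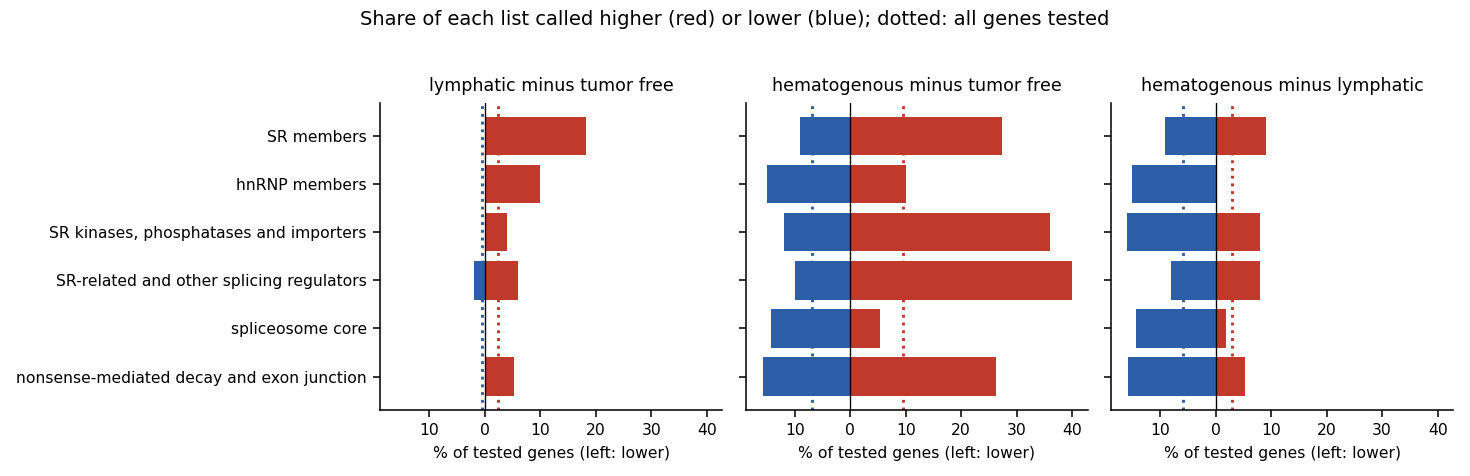
Percent of tested genes called higher (red, to the right) or lower (blue, to the left) in each list, by comparison, with dotted lines at the percentages over all genes tested. In the hematogenous against tumor-free panel 20 of 50 SR-related and other regulators are called higher and the spliceosome core has more genes lower than higher.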

How the data were processed

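The authors deposited raw read counts per gene, 1 table for each of 12 libraries. Per the labels' protocols, polyadenylated RNA was read as stranded single-end reads. The reads were handled with HTSeq 2.0.2, HISAT2 2.1.0, Trimmomatic 0.39 and FastQC 0.11.9 on GRCm39, per the submitters' processing notes, and the strand setting of the counting is not given in the sources used here. Of 56748 gene identifiers, 52125 matched a GENCODE M21 symbol, and these held 99.6% of counts. The 5 summary lines of each table stayed out of library sizes (55.4% to 72.1% of reads were assigned to a gene).

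Counts were scaled by TMM, filtered by filterByExpr and fitted with edgeR 4.0.16 (R 4.3.3) as a robust quasi-likelihood model of group over all 12 libraries, with 9 residual degrees of freedom. Calls were made at 0.05 after Benjamini-Hochberg adjustment of p over the 16016 tested genes, and intervals are at 95%. The fit was tested on simulated data with planted changes larger than those of the SR and hnRNP genes, Srsf12 apart. Changes of their size were not covered. CPM are TMM-scaled. Alternatives used DESeq2 1.42.0, voom (limma 3.58.1), other scalings and filters, equal depth, removal of a gene-length trend and libraries left out. Promoter windows came from RefSeq on GRCm38.p6 and gene lengths from GENCODE M21, and neither was used for coordinates of counted genes.

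Every gene called in any comparison is named, with the 3 most abundant per length in each family, up to 3 called genes of each pathway list and comparison by smallest adjusted p, and Srpk1, Clk1, Tra2b, Ptbp1, Tnpo3 and Upf1. Others are named to complete the family, and 1 gene that the rule selects is not reported here. The genes and lists were chosen with earlier results of these data known. No library was a copy of another.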

Additional observations from a re-analysis of the deposited data

Results flagged for a closer look

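Of the 31 genes and the summed families, 6 values in groups of 4 libraries had a lowest or highest library whose gap to the nearest other, divided by the range of the group, exceeded Dixon's critical value at 95%. Chance flags about 1 in 20 groups, and 93 groups of single genes and 6 of family sums were tested. Of the 6 flagged values, 4 concern the same library. Lymphatic replicate 2 was the highest for Hnrnpab (418 CPM against 219.5 to 228, ratio 0.956), Hnrnpa3 (251 CPM against 169 to 177, ratio 0.903), Hnrnpd (365 CPM against 242 to 254, ratio 0.900) and Hnrnpf (223 CPM against 179.6 to 185, ratio 0.877). Lymphatic replicate 1 was the lowest for Hnrnpll (27.6 CPM against 31.9 to 32.3, ratio 0.916). Hematogenous replicate 3 was the lowest for Srsf9 (20.3 CPM against 33.4 to 35.7, ratio 0.851), and the lower Srsf9 call in hematogenous libraries was lost without it.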

How the results depend on the processing

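Over the single genes and alternatives run, 1976 values kept their direction and side of the threshold, 190 lost a call, 42 gained one and 67 changed sign. Values for lymphatic against tumor-free libraries come first, then hematogenous against tumor-free, then hematogenous against lymphatic. The count of the 31 genes called in the lymphatic comparison went from 4 to 1 with DESeq2 size factors, 1 with upper quartile scaling, 1 with library size alone, 2 with only the compared groups, 0 at equal depth, 2 without hematogenous replicate 1 and lymphatic replicate 2 (chosen after seeing the data), and 0 to 4 with 1 library left out. DESeq2 called 729 genes of all in place of 439. In the direct contrast the 5 called of the 31 became 9 with voom, 8 with the length trend removed, 1 without both libraries and 2 to 7 with 1 library left out, and the 1417 of all genes became 2913, 400 and 620 to 1572 with voom, without both and with 1 left out. All-gene counts with 1 left out were 255 to 634 and 1760 to 3202 in the comparisons with tumor-free libraries, and 7 to 11 of the 31 were called in the second. The cause of these changes was not tested. The share of calls that were higher was 33.1% in the direct contrast, and 47.4%, 52.3% and 55.8% with DESeq2 size factors, upper quartile scaling and library size alone. In the lymphatic comparison library size alone took it from 84.7% to 73.2%, and in the hematogenous one the length trend took it from 58.1% to 48.2%.

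Small uncalled log2 differences changed sign. Hnrnpf in the lymphatic comparison (0.05) became -0.023 (DESeq2 size factors), -0.030 (upper quartile), -0.036 (library size), -0.023 (DESeq2), -0.075 (equal depth) and -0.064 (both left out), and ran from -0.061 to 0.096 with 1 left out. Tnpo3 there (0.01) became -0.057, -0.064, -0.072, -0.011 (no filter), -0.017 (mean CPM of at least 1), -0.057 (DESeq2), -0.0054 (voom), -0.030 (only the compared groups), -0.022 (equal depth), -0.045 (length trend) and -0.044 (both left out), and ran from -0.056 to 0.041. In the hematogenous comparison Tnpo3 (-0.004) became 0.0093 (upper quartile), 0.016 (library size), 0.011 (no filter), 0.0059 (voom), 0.0071 (equal depth) and 0.041 (both left out), and ran from -0.062 to 0.043. In the direct contrast Tnpo3 (-0.02) became 0.049, 0.074, 0.088, 0.022 (no filter), 0.0018 (mean CPM of at least 1), 0.049 (DESeq2), 0.011 (voom), 0.029 (equal depth) and 0.084 (both left out), and ran from -0.038 to 0.068. Ptbp1 in the lymphatic comparison (0.09) became -6.7e-05 with library size alone and -0.015 without both, and ran from -0.012 to 0.14. Hnrnpa2b1 in the hematogenous comparison became -0.012 (voom), -0.0058 (equal depth), -0.10 (length trend) and -0.0093 (both left out), and ran from -0.027 to 0.075. Srsf12 in the lymphatic comparison became 0.14 with voom and ran from -0.80 to 0.12, Srsf9 there ran from -0.25 to 0.0043, and Srsf6 in the direct contrast ran from -0.043 to 0.13.

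Replicate numbers showed no visible pairing of the libraries. Same-numbered libraries correlated between -0.073 and 0.059 in their deviations from group means, and differently numbered ones between -0.101 and 0.153. With so few libraries this cannot show that no pairing exists. With the replicate block, 3, 8 and 5 of the 31 genes and 362, 2518 and 1439 of all genes were called. Depth limits Srsf12 most, at 9 to 355 counts a library.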
